A study of Mus musculus with 30 samples.

Results

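The xenobiotic metabolism enzyme families described here are the cytochrome P450 (Cyp2, Cyp3a), retinaldehyde dehydrogenase (Aldh1a), carboxylesterase (Ces1, Ces2), glutathione S-transferase (Gsta, Gstm, Gstp, Gstt), UDP-glucuronosyltransferase (Ugt1a, Ugt2) and sulfotransferase (Sult1, Sult2) genes of the mouse colon. Members were chosen by symbol, and by a mean of at least 1 CPM (a gene's reads scaled to a common library total) over all 30 libraries. Of 148 genes with such a symbol 63 had that mean, out of 55487 genes in all, of which 16513 had it. The symbol pattern for Cyp2 also takes in Cyp20a1, Cyp26b1 and Cyp27a1, which belong to other P450 families and are given apart.

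These enzymes make foreign and internal lipophilic compounds easier to excrete. In the first phase, P450 and aldehyde dehydrogenase enzymes oxidize a compound and carboxylesterases hydrolyse its esters. In the second, transferases attach glutathione, glucuronic acid or sulfate, and transporters export the products. The epithelium of the gut meets dietary and microbial compounds first and expresses many of these genes, and receptors such as PXR (Nr1i2), AHR and the stress regulator NRF2 (Nfe2l2) are known to control parts of the system.

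Colon RNA was taken from mice with deletions in intestinal epithelial cells (IEC) of Xbp1, a transcription factor of the unfolded protein response, and Casp8, a protease that starts apoptosis and restrains necroptosis, and from mice with a further deletion of TNFR1 (Tnfrsf1a, a receptor of TNF) in IEC or of MLKL, the executor of necroptosis. The 6 genotypes, with 5 mice each, were XBP1IEC-KO (called Xbp1 knockout here), Casp8IEC-KO (Casp8 knockout), XBP1IEC-KO;Casp8IEC-KO (double knockout), XBP1IEC-KO;Casp8IEC-KO;TNFR1IEC-KO (TNFR1 triple knockout), XBP1IEC-KO;Casp8IEC-KO;MLKLKO (MLKL triple knockout) and WT. Both triple knockouts carry the epithelial Xbp1 and Casp8 deletions of the double knockout, and the MLKL label, unlike the others, names no cell type for the deletion. The labels give no age, sex or treatment and do not name the Cre line.

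Libraries held 3516793 to 5823060 reads, so that 1 read was worth 0.232 CPM in the median library, and the 63 members together held 0.194% to 0.316% of a library's reads. Casp8 was at 24.7 to 34.4 CPM in the Casp8 knockout, 20.6 to 44.4 CPM in the double knockout, 15.4 to 32.0 CPM in TNFR1 triple knockouts and 13.04 to 29.7 CPM in MLKL triple knockouts, against 52.6 to 59.0 CPM in WT. Xbp1 was at 50.3 to 64.7 CPM in the Xbp1 knockout and 70.4 to 134 CPM in the double knockout, against 55.0 to 102 CPM in WT. Whole colon also holds cells outside the epithelium, and a 3′ tag would not report the deletion of an exon it does not cover. The labels do not name the deleted exon, and the part of either in these levels was not tested. Tnfrsf1a was at 51.0 to 71.9 CPM in TNFR1 triple knockouts, against 74.2 to 110 CPM in the double knockout. Mlkl was at 1.25 to 10.7 CPM in MLKL triple knockouts, highest in replicate 5, against 11.7 to 28.04 CPM in the double knockout and 5.85 to 10.3 CPM in WT; the other 4 MLKL triple knockout libraries, at up to 4.69 CPM, lay below every WT library. Casp8 in Xbp1 knockout replicate 2 was 20.6 CPM, against 44.2 to 66.3 CPM in the other Xbp1 knockout libraries and 52.6 to 59.0 CPM in WT. The labels of MLKL triple knockout replicate 5 and Xbp1 knockout replicate 2 are therefore in doubt, and both libraries are used under their labels. Mitochondrial transcripts made up 10.3% of reads in double knockout replicate 1, against 15.997% to 19.2% in the other 4 of that genotype. Results are also given without these 3 libraries where that changes a call. Called from Xist and Y-linked genes, female and male mice numbered 3 and 2 among Xbp1 knockouts, 3 and 2 among Casp8 knockouts, 1 and 4 among double knockouts, 4 and 1 among TNFR1 triple knockouts, 5 and 0 among MLKL triple knockouts, and 1 and 4 among WT.

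The colon expressed a small set of these genes at high levels. A 3′ tag library counts about 1 tag for each transcript, so that levels of different genes can be set side by side without a length correction. Sult1b1 (a sulfotransferase of phenols and thyroid hormone) averaged 353 CPM over the 30 libraries, Gstm1 324 CPM, Ugt2b34 230 CPM, Cyp2d34 122 CPM and Cyp3a13 (the only Cyp3a member) 107 CPM. At the other end, 10 members averaged under 5 CPM. Families differed in how many of their genes reached the mean of 1 CPM. All 4 Aldh1a genes and 7 of 8 Gstm genes did, against 18 of 52 Cyp2 genes, 1 of 10 Cyp3a genes and 1 of 13 Sult2 genes. All 9 Ugt1a genes reached it too, but largely through reads that they share. Ugt1a8, Ugt1a9 and Ugt1a10 had 0 reads above the value common to all 9, so the values do not show that each Ugt1a gene was on. The remaining families had 4 of 8 (Ces1, led by Ces1f at 7.62 CPM), 4 of 7 (Ces2, led by Ces2e at 51.5 CPM), 2 of 4 (Gsta, led by Gsta4 at 38.2 CPM), 3 of 4 (Gstt, led by Gstt3 at 75.9 CPM), 4 of 8 (Sult1) and 2 of 10 (Ugt2). Sult2b1, the Sult2 member and a sulfotransferase of cholesterol, averaged 21.6 CPM, and Gstp3, the 1 of 3 Gstp genes that was a member, 4.88 CPM. The best known gene of that class, Gstp1, stood at 0.189 CPM, while reads were assigned to the pseudogene Gstp-ps at 4.41 CPM, which the symbol rule leaves out. Just inside the level rule was Cyp2e1 at 1.08 CPM, with 10 libraries at 0, and just outside was Ces2f at 0.942 CPM. These levels chose the members and are a description.

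The members lie in tandem arrays, as these families are known to. Joining members less than 2 Mb apart, 11 clusters held 47 of the 63. On chromosome 1 the 9 Ugt1a members span 0.165 Mb, on chromosome 3 the 7 Gstm members 0.149 Mb, on chromosome 15 the 6 Cyp2d members 0.424 Mb, and on chromosome 8 the Ces1 and the Ces2 members, 4 each, 0.171 and 0.236 Mb. The Ugt1a genes use different first exons with the same last exons, so a 3′ tag cannot tell most of them apart: deposited values of Ugt1a8, Ugt1a9 and Ugt1a10 were equal (within 0.005 reads) in 30 of 30 libraries. Only part of the reads distinguished a Ugt1a gene, which was 28.6% of the value of Ugt1a7c and 0.997% of that of Ugt1a1. Outside Ugt1a, 13 members shared over 10% of the 50-base words of their last 400 transcript bases with another gene, 6 of them Cyp2d genes, and how reads between such copies were divided is not given in the sources used here.

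Many of these genes are known for the liver. Of 6 hepatocyte markers Serpina1a was at 0 in all 30 libraries, and over these libraries Fgb reached at most 0.232 CPM, Apoa2 2.19 CPM, albumin (Alb) 3.18 CPM and Tat 7.90 CPM. The remaining marker, transthyretin (Ttr), which is also made outside the liver, was at 50.4 to 134 CPM in the double knockout, against 89.6 to 128 CPM in WT, and made up most of the summed level of the 6, which was 53.9 to 139 CPM in the double knockout, against 92.6 to 131 CPM in WT. Marker genes of the absorptive colonocyte summed to 14524 to 23189 CPM in the double knockout, against 14271 to 17425 CPM in WT.

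Against WT, the largest number of members changed in the double knockout. A filter on low counts kept 61 of the 63 members, and left out Cyp2e1 and Aldh1a2 (a further retinaldehyde dehydrogenase); 48 members held at least 10 reads in every library. Of the 61, 17 changed (edgeR's quasi-likelihood test, Benjamini-Hochberg adjusted p under 0.05), 6 higher and 11 lower. That is 27.9% of members, against 21.3% of all 15458 genes tested, of which 11.1% were higher and 10.2% lower. The median log2 fold change of the members was −0.24, against 0.01 over all genes. Families were called in different directions: both Gsta members, the Gstp member, Gstm2, Ces2e and Cyp2d9 were higher, while Aldh1a1, Gstt1, 4 Cyp2 members, Cyp26b1, 2 Ces1 members, Sult1a1 and Ugt1a7c were lower.

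**Figure D1:**
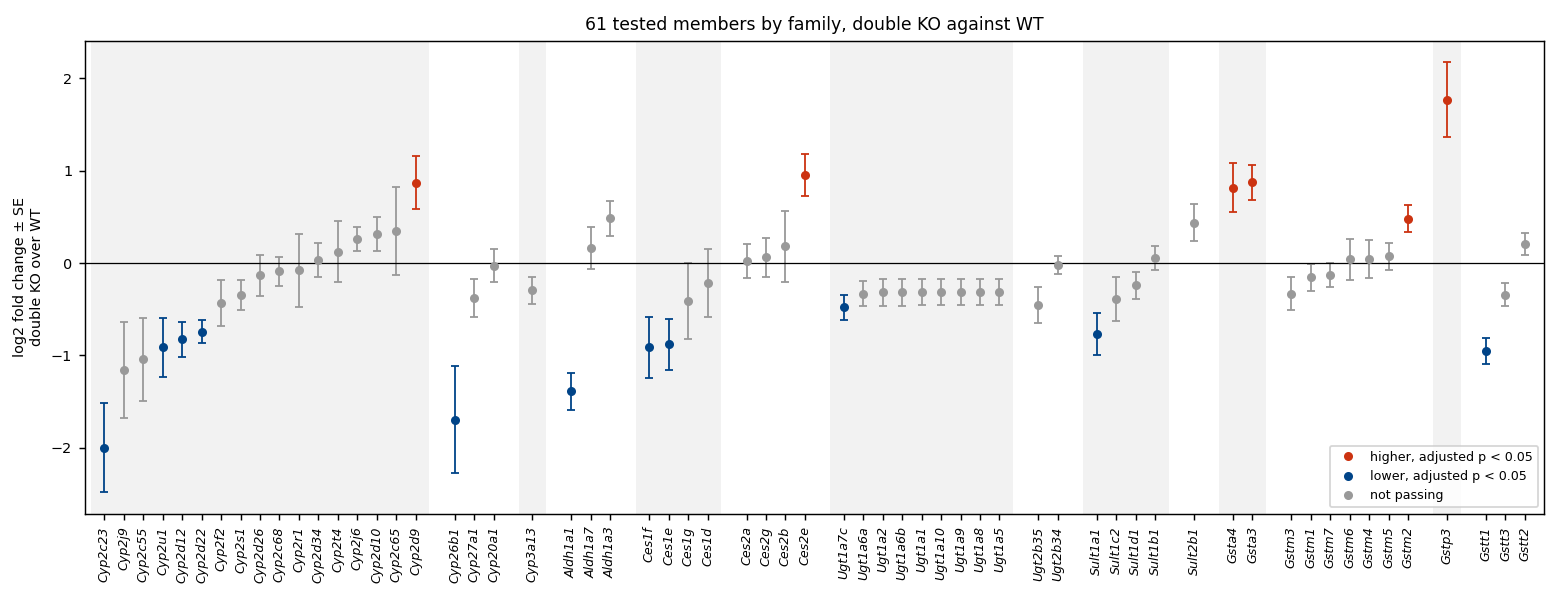
Log2 fold change of each of the 61 tested members, double knockout over WT, arranged by family, with bars of ±1 SE (edgeR, 5 mice per group). Red points are higher and blue points lower at an adjusted p under 0.05, and grey points did not pass; both Gsta points lie above 0 and the 9 Ugt1a points between −0.48 and −0.31.

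Among the oxidizing enzymes, Aldh1a1 had the smallest p of all members. It encodes a cytosolic enzyme that oxidizes retinaldehyde to retinoic acid (ENSMUSG00000053279, chromosome 19, 20492715 to 20643465, plus strand, GRCm38). It was at 18.7, 26.8, 26.2, 11.9 and 18.9 CPM in the double knockout, against 56.7, 53.9, 57.5, 52.4 and 59.8 CPM in WT. Every double knockout library lay below every WT library, and the log2 fold change was −1.39 ± 0.20 (SE, n = 5 each, adjusted p = 2.24e-05 by edgeR). Its neighbour Aldh1a7 had a log2 fold change of 0.16 (adjusted p = 0.657), and Aldh1a1 shares 10.5% of its 3′-end words with it. Aldh1a3, which makes retinoic acid too, had a log2 fold change of 0.49 (adjusted p = 0.066). Cyp26b1, which breaks retinoic acid down, was called lower at −1.70 ± 0.58 (adjusted p = 0.0336), but this rested on WT replicate 1, at 67.0 CPM against 2.57 to 7.04 CPM in the other WT libraries and 1.91 to 8.76 CPM in the double knockout. Without that library the log2 fold change was 0.18, with the sign reversed.

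Members of the Cyp2d cluster on chromosome 15 were called in both directions, the higher one being Cyp2d9 alone. Cyp2d22 (82370527 to 82380260, minus strand) was at 16.5, 16.5, 14.5, 16.6 and 14.3 CPM in the double knockout, against 33.1, 23.1, 27.7, 25.7 and 27.1 CPM in WT. The groups did not overlap, and the log2 fold change was −0.74 ± 0.13 (edgeR, adjusted p = 0.000134). Cyp2d12 was at 28.2, 15.6, 9.33, 19.5 and 17.99 CPM in the double knockout, against 38.2, 30.04, 28.6, 34.2 and 36.0 CPM in WT. Only double knockout replicate 1 came near the WT range, and the log2 fold change was −0.83 ± 0.19 (adjusted p = 0.00268). Cyp2d9 was called higher at 0.87 ± 0.29 (adjusted p = 0.0283), with 55.5 CPM in double knockout replicate 1 and 13.3 to 29.7 CPM in the other 4, against 12.1 to 20.1 CPM in WT. This call was lost without double knockout replicate 1. Cyp2d9 shares 30.6% of its 3′-end words with other genes, most of all with Cyp2d12, and the part of shared reads in the opposite calls was not tested. Cyp2d34, the most abundant Cyp2 member, had a log2 fold change of 0.03 with a 95% interval of −0.32 to 0.39. The sum over the 6 Cyp2d members was 232 ± 89.3 CPM in the double knockout and 244 ± 38.9 CPM in WT (SD, n = 5 each).

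Cyp2c23, an arachidonic acid epoxygenase, was the lowest of the P450 members that changed, with 6, 0, 3, 3 and 2 reads in the double knockout, against 11, 8, 11, 18 and 4 reads in WT. Per library total these were 0 to 1.03 CPM in the double knockout, against 1.08 to 4.21 CPM in WT, so that the groups did not overlap but came within 1 read of each other, and the fitted log2 fold change was −1.999 ± 0.48 (edgeR, adjusted p = 0.00349). Cyp2c23 reached the low-count filter's cutoff of 2.32 CPM in 8 libraries. These were 3 of WT, 2 of the Casp8 knockout, 2 of the MLKL triple knockout and 1 of the Xbp1 knockout, with 0 of the double knockout. The filter thus kept Cyp2c23 through groups where it was higher, a limit on its calls here and below. Cyp2u1, a fatty acid hydroxylase, was lower at −0.92 ± 0.32 (adjusted p = 0.0366). Cyp3a13 did not pass, at −0.29 with a 95% interval of −0.58 to −0.01 (adjusted p = 0.154). Cyp27a1, a sterol hydroxylase of bile acid synthesis, did not pass either (−0.38, adjusted p = 0.186).

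Carboxylesterases were called in both directions. Ces2e, on chromosome 8 (104926260 to 104934672, plus strand), is the most abundant member of the class that hydrolyses esters in the gut. It was at 121, 56.2, 83.2, 71.5 and 44.4 CPM in the double knockout, against 43.4, 33.2, 37.0, 41.7 and 45.5 CPM in WT. In the double knockout 4 libraries lay above every WT library and replicate 5 lay within the WT range, and the log2 fold change was 0.96 ± 0.22 (edgeR, adjusted p = 0.00258). Its neighbours Ces2a, Ces2b and Ces2g had log2 fold changes of 0.02, 0.18 and 0.06 and did not pass. Of the 4 Ces1 members 2 were lower, and the family's median was −0.64. Ces1e was at 3.61, 3.35, 4.96, 2.14 and 5.24 CPM in the double knockout, against 9.67, 6.65, 5.97, 4.45 and 10.6 CPM in WT, with a log2 fold change of −0.88 ± 0.27 (adjusted p = 0.0199). Ces1f, at −0.91 ± 0.33 (adjusted p = 0.0478), lay just under the threshold.

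Most of the rises were of glutathione transferases. Gsta3, an alpha class enzyme known in the mouse for conjugating aflatoxin epoxide, lies on chromosome 1 (ENSMUSG00000025934, 21240589 to 21265661, plus strand). It was at 62.0, 53.8, 46.6, 44.0 and 27.6 CPM in the double knockout, against 26.1, 18.7, 20.5, 37.7 and 29.5 CPM in WT. In the double knockout 4 libraries lay above every WT library and replicate 5 lay within the WT range, and the log2 fold change was 0.88 ± 0.19 (edgeR, adjusted p = 0.00123). Gsta4, known for conjugating the lipid peroxidation product 4-hydroxynonenal, was at 116, 35.4, 47.0, 44.7 and 63.5 CPM in the double knockout, against 46.1, 25.9, 31.7, 32.8 and 43.1 CPM in WT. Replicate 1 stood far above the rest and replicates 2 and 4 lay within the WT range, and the log2 fold change was 0.82 ± 0.27 (adjusted p = 0.0276). Summed, the 2 Gsta members were at 88.6 to 178 CPM in the double knockout, against 44.6 to 72.6 CPM in WT, without overlap.

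Gstp3, a pi class gene on chromosome 19 (4057477 to 4059569, minus strand), had the largest rise of the members that passed. It was at 20.8, 5.26, 5.95, 8.32 and 12.3 CPM in the double knockout, against 5.17, 1.97, 1.67, 3.98 and 2.98 CPM in WT. Every double knockout library lay above every WT library, the closest pair by under 1 read, and the log2 fold change was 1.77 ± 0.41 (edgeR, adjusted p = 0.00229). Gstm2 was higher by a smaller step, 0.48 ± 0.15 (adjusted p = 0.0189), while Gstm1, the most abundant glutathione transferase, had a log2 fold change of −0.15 with a 95% interval of −0.44 to 0.14. Gstt1, a theta class enzyme on chromosome 10, went the other way. It was at 19.9, 21.3, 22.6, 15.2 and 17.3 CPM in the double knockout, against 38.5, 40.6, 42.0, 37.4 and 36.0 CPM in WT. The groups were far apart, and the log2 fold change was −0.95 ± 0.14 (adjusted p = 2.54e-05). Gstt3, its more abundant neighbour, had a log2 fold change of −0.34 and did not pass (adjusted p = 0.0549).

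The 250 bases before the RefSeq start of these genes (GRCm38.p6, 5′ to 3′ on the gene's strand) are shown for 2 members that were higher and passed under all alternatives, Gsta3 (chr1:21240335-21240584, plus strand) and Gstp3 (chr19:4059448-4059697, minus strand), and for the 2 lower members of smallest p, Aldh1a1 (chr19:20492333-20492582, plus strand) and Gstt1 (chr10:75797732-75797981, minus strand). Capitals mark a match on either strand to the core letters of the antioxidant response element bound by NRF2 (ARE, TGACNNNGC) or of the xenobiotic response element bound by AHR (XRE, GCGTG), motifs that do not overlap here.
Gsta3: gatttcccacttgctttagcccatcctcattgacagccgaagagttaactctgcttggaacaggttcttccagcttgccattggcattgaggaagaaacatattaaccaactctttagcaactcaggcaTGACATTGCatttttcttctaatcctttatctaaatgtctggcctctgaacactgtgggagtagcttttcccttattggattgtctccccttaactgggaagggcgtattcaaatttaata
Gstp3: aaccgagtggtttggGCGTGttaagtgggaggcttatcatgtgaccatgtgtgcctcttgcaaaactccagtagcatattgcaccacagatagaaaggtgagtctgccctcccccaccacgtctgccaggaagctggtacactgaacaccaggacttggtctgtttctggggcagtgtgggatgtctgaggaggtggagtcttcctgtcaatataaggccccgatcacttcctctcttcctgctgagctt
Aldh1a1: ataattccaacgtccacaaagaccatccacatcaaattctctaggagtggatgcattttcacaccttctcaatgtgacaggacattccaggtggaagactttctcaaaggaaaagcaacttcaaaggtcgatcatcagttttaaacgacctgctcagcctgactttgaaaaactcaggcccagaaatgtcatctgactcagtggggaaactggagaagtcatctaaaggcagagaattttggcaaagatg
Gstt1: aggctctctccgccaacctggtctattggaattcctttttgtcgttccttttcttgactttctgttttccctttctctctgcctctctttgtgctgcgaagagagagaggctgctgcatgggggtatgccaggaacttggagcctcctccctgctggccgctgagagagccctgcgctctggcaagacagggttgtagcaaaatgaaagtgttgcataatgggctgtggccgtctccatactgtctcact
The Gsta3 window holds 1 ARE match, 121 bases before the start, the Gstp3 window 1 XRE match, 235 bases before it, and the other windows shown hold neither. Ces2e, which was also higher and passed under all alternatives, is not shown, and its window holds neither match. The same is true of Ugt1a7c, a lower member that is not shown. RefSeq promoters were found for 51 of the 63 members, 60 promoters in all. The ARE letters occurred in 4 of these 60 (6.67%), against 10.2% of 32851 promoters of all genes, and the XRE letters in 13 of 60 (21.7%), against 28.2% of all promoters. A match is a description of these letters and not a site of binding.

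The median log2 fold change of the Ugt1a members was −0.32, that of the 4 Sult1 members −0.32 and that of the 2 Ugt2 members −0.24, in the double knockout against WT. All 9 Ugt1a members had log2 fold changes of −0.48 to −0.31 there, which are not 9 separate measurements because of the shared reads. Ugt1a7c passed at −0.48 ± 0.13 (edgeR, adjusted p = 0.0107) and was at 29.8, 24.3, 28.5, 18.4 and 19.9 CPM in the double knockout, against 32.3, 30.8, 37.9, 32.2 and 42.8 CPM in WT. Its reads above the value common to the locus were 5.29 ± 1.33 CPM in the double knockout and 10.7 ± 2.87 CPM in WT (SD, n = 5 each). The Ugt1a members summed to 179 ± 37.7 CPM in the double knockout and 236 ± 25.4 CPM in WT. Ugt2b34, the most abundant glucuronosyltransferase, had a log2 fold change of −0.02 with a 95% interval of −0.22 to 0.17.

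Sult1a1, a phenol sulfotransferase, was the 1 sulfotransferase that changed. It was at 89.0, 34.2, 50.9, 45.4 and 58.0 CPM in the double knockout, against 87.3, 105, 95.7, 100.03 and 100.5 CPM in WT. Double knockout replicate 1 lay at the lower edge of the WT range and the other 4 lay well below it, and the log2 fold change was −0.77 ± 0.23 (edgeR, adjusted p = 0.0149). Its annotated span overlaps that of Sgf29 on the other strand, and reads in the overlap cannot be told apart without a stated strand setting. The spans of Aldh1a1 with C730002L08Rik and Gm6684, and of Gsta3 with Gm28836, overlap in this way too. The values of Aldh1a1 and Gsta3 were whole in all 30 libraries, though, and so show no divided reads, while some of Sult1a1 were not whole. Sult1b1, at 0.06 with a 95% interval of −0.19 to 0.30, and Sult2b1, at 0.44 (adjusted p = 0.124), did not pass.

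**Figure D2:**
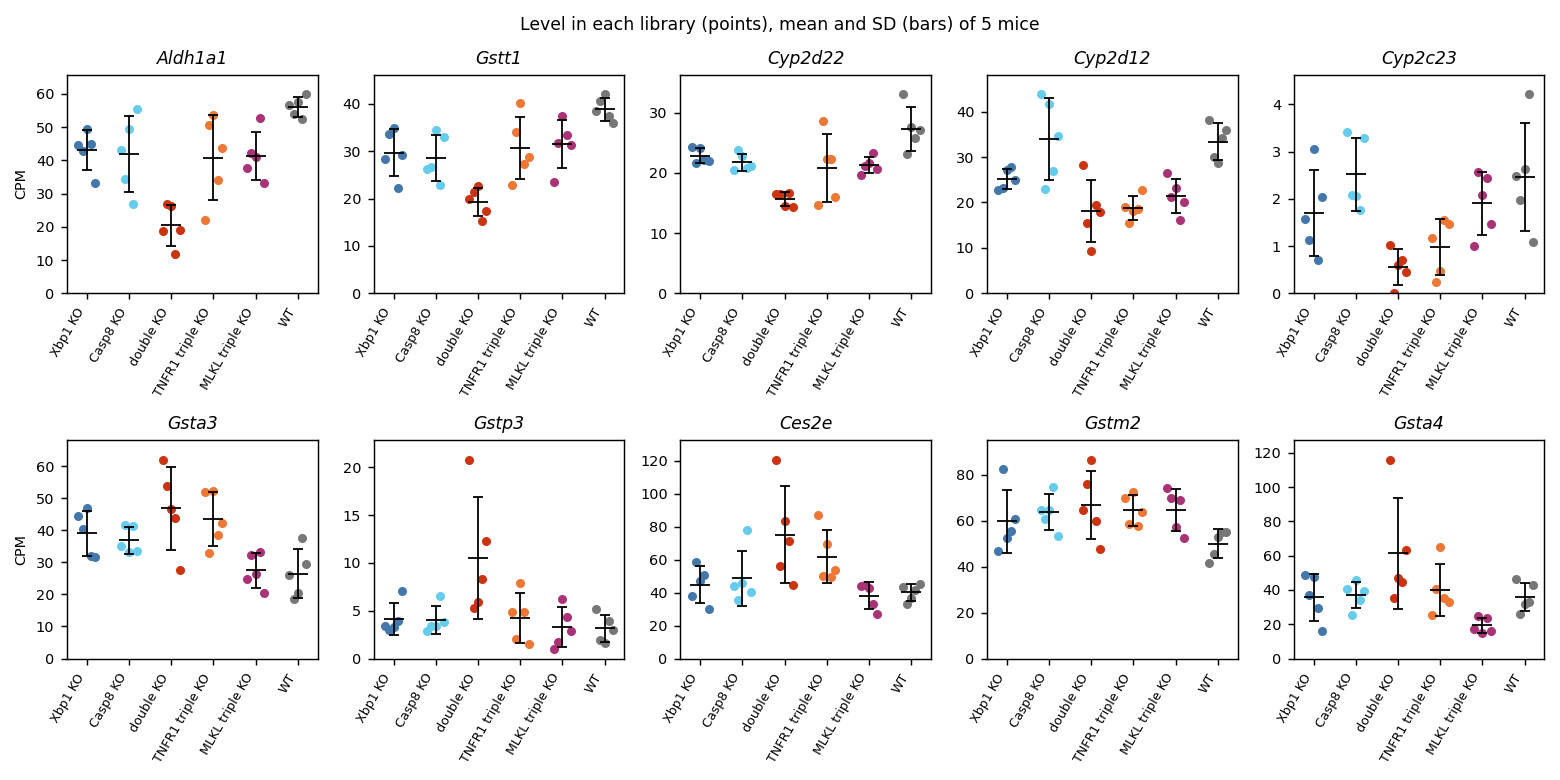
CPM of 10 members in each of the 30 libraries (points), with the mean and SD of the 5 mice of each genotype (bars), each panel on its own linear axis from 0. Aldh1a1 and Gstt1 are lowest in the double knockout, at 11.9 to 26.8 and 15.2 to 22.6 CPM, and the highest Gsta4, Gstp3 and Ces2e points, at 116, 20.8 and 121 CPM, are all double knockout replicate 1.

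Of these 17 calls, those of Aldh1a1, Gstt1, Cyp2d22, Cyp2d12, Ugt1a7c, Sult1a1, Gsta3, Gstp3 and Ces2e passed under all 18 alternatives run. That of Cyp2c23, which the filter kept through groups where it was higher, passed under the 17 that gave it an adjusted p. Without double knockout replicate 1 Gsta4 was at 0.48 (edgeR, adjusted p = 0.185) and Cyp2d9 at 0.48 (0.214), and neither passed. The other calls were lost when 1 library was left out: Gsta4 also without WT replicates 2, 3 or 4, Cyp2d9 without double knockout replicate 4 or WT replicates 1, 2 or 3, Gstm2 without double knockout replicates 2 or 3 or WT replicate 1, and Ces1e without double knockout replicate 4 or WT replicates 1 or 5. The same held of Cyp2u1 without double knockout replicates 2, 3 or 4 or WT replicates 1 or 5, of Cyp26b1 without double knockout replicates 2, 4 or 5 or WT replicate 1, and of Ces1f without double knockout replicates 1, 4 or 5 or WT replicates 1, 2, 4 or 5. Adjusted p then lay between 0.0562 and 0.214 for these genes other than Cyp26b1, whose highest was 0.796. Other settings lost calls too. Among male mice those of Gstm2 (edgeR, adjusted p = 0.0915), Cyp2u1 (0.108), Gsta4 and Cyp26b1 were lost. With only the groups compared those of Cyp2d9, Cyp26b1 and Ces1f were lost. The call of Ces1f was also lost with sex as a term, and that of Cyp26b1 with the replicate number as a block. The count of called members was 11 without WT replicate 1. Without the 3 libraries that stand apart the calls of Gsta4 (adjusted p = 0.189), Cyp2d9 (0.222) and Ces1f (0.139) were lost, and of the members called 4 were higher and 13 lower.

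Marker genes of several cell types changed in the same contrast, where 11.1% of all genes were higher and 10.2% lower. All 6 smooth muscle markers were lower, with a summed level of 2644 to 3941 CPM in the double knockout, against 5747 to 7858 CPM in WT, and 4 of 6 fibroblast markers were lower (1447 to 2132 CPM in the double knockout, against 2259 to 3141 CPM in WT). Of 7 general epithelial markers 4 were higher, with sums of 8917 to 11506 CPM in the double knockout, against 7218 to 8756 CPM in WT. B and plasma cell markers were higher in 4 of 6, with sums of 1812 to 9646 CPM in the double knockout, against 267 to 945 CPM in WT. In whole colon, fewer cells of a type and less RNA per cell cannot be told apart, and the part of these shifts in the results was not tested.

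**Figure D3:**
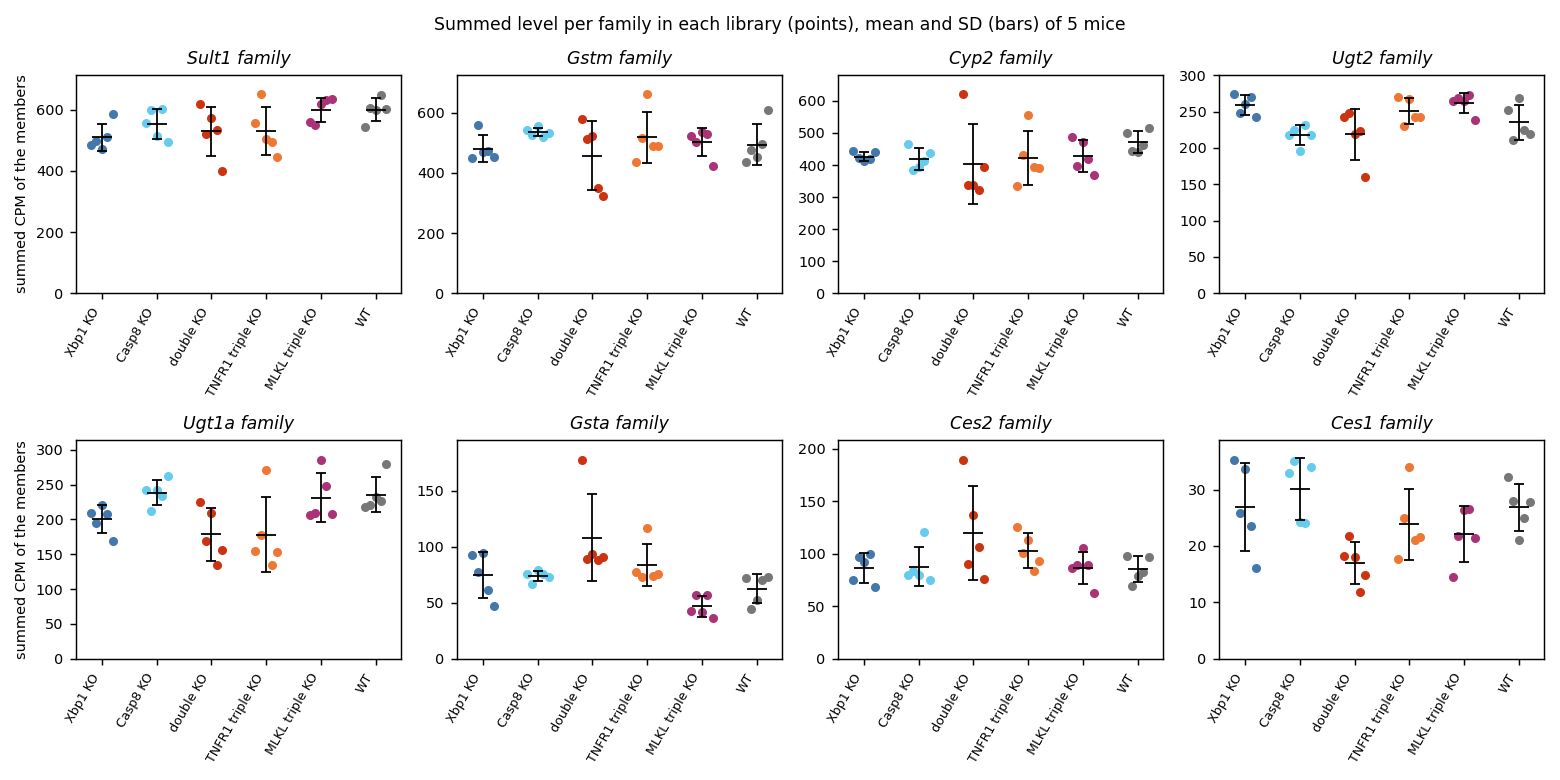
Summed CPM of the members of 8 families in each library (points), with mean and SD per genotype (bars), on linear axes from 0. The Gsta sum is 88.6 to 178 CPM in the double knockout and 36.5 to 56.9 CPM in MLKL triple knockouts, against 44.6 to 72.6 CPM in WT.

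Few members passed in the single knockouts. In the Xbp1 knockout against WT, 0 of 61 members passed edgeR's test (0.0841% of all genes did) and 0 passed DESeq2. By edgeR 7 members had an unadjusted p under 0.05, as did 2017 of all 15458 genes. The smallest p belonged to Gsta3, at 44.5, 40.2, 47.0, 32.0 and 31.6 CPM in the Xbp1 knockout, against 26.1, 18.7, 20.5, 37.7 and 29.5 CPM in WT, with a log2 fold change of 0.64 ± 0.19 (edgeR, adjusted p = 0.13). It was followed by Cyp26b1, at −1.84 ± 0.59 (adjusted p = 0.17) and at 0.04 without WT replicate 1. In the Casp8 knockout against WT 1 member passed, 1.64% of members against 1.17% of all genes (0.537% lower). This was Sult1c2, a sulfotransferase on chromosome 17, at 10.8, 12.3, 13.2, 11.5 and 19.2 CPM in the Casp8 knockout, against 38.2, 22.9, 22.2, 27.8 and 34.7 CPM in WT. The groups did not overlap, and the log2 fold change was −1.06 ± 0.25 (adjusted p = 0.0268). The call was lost when Casp8 knockout replicates 1, 2, 3 or 4 or WT replicates 1 or 5 were left out (adjusted p 0.057 to 0.0788), with sex as a term (0.0726) and among male mice (0.735). Sult1c2 in the double knockout, where Casp8 is deleted too, was at 8.79 to 31.3 CPM and had a log2 fold change of −0.39 against WT (adjusted p = 0.249).

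Setting the double knockout beside each single knockout gives what the second epithelial deletion added. Against the Xbp1 knockout 6 members changed, 2 higher and 4 lower, which is 9.84% of members against 8.64% of all genes (4.77% higher, 3.86% lower). Aldh1a1 was at 11.9 to 26.8 CPM in the double knockout, against 33.2 to 49.5 CPM in the Xbp1 knockout (−1.09 ± 0.20, edgeR, adjusted p = 0.0015). Gstt1 was at 15.2 to 22.6 CPM in the double knockout, against 22.2 to 35.0 CPM in the Xbp1 knockout (−0.65 ± 0.14, adjusted p = 0.00446). Cyp2d22 was lower at −0.57 ± 0.13 (adjusted p = 0.00562) and Ces1e at −0.89 ± 0.27 (0.0375), and Gstp3 was higher at 1.33 ± 0.39 (0.031) and Ces2e at 0.72 ± 0.22 (0.0386). Only the calls of Aldh1a1, Gstt1 and Cyp2d22 held when any 1 library was left out, and of these only Aldh1a1 also held among male mice (Gstt1 0.131, Cyp2d22 0.0821). The calls of Gstp3, Ces2e and Ces1e were each lost without Xbp1 knockout replicates 1, 3 or 4 or double knockout replicate 1. That of Gstp3 was also lost without the library labelled Xbp1 knockout replicate 2 or double knockout replicate 5, that of Ces2e without Xbp1 knockout replicate 5 or double knockout replicates 3 or 4, and that of Ces1e without that same library or double knockout replicates 2 or 4, with adjusted p of 0.0512 to 0.176. The count was 3 without Xbp1 knockout replicate 1 and without Xbp1 knockout replicate 3. Without the 3 libraries that stand apart Aldh1a1, Gstt1 and Cyp2d22 passed, while the calls of Gstp3 (adjusted p = 0.253), Ces1e (0.149) and Ces2e were lost.

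Against the Casp8 knockout 15 members changed, 4 higher and 11 lower, 24.6% of members against 18.4% of all genes (9.68% higher, 8.71% lower). Of the 11 lower members 3 were Ugt1a genes, which share most of their reads and are not 3 separate measurements. Aldh1a1 was at 11.9 to 26.8 CPM in the double knockout, against 26.9 to 55.5 CPM in the Casp8 knockout (−1.03 ± 0.20, edgeR, adjusted p = 0.000869). Ces1f was at 1.89, 7.42, 6.35, 3.09 and 1.14 CPM in the double knockout, against 14.5, 13.1, 10.5, 10.3 and 11.8 CPM in the Casp8 knockout (−1.59 ± 0.32, adjusted p = 0.00114). These Ces1f groups did not overlap, and Ces1e was lower as well (−1.12 ± 0.27, adjusted p = 0.00464). Cyp2d12 (−0.91 ± 0.19, adjusted p = 0.00166) and Cyp2c23 (−2.05 ± 0.49, 0.00393) were the other 2 of the 5 lower members with the smallest p. The 4 higher members were Cyp2j6 (0.51 ± 0.13, adjusted p = 0.00779), Aldh1a3 (0.70 ± 0.19, 0.0115), Gstp3 (1.38 ± 0.40, 0.0153) and Ces2e (0.62 ± 0.22, 0.0484). The Gstp3 call was lost without double knockout replicate 1 (adjusted p = 0.0993), and that of Ces2e without Casp8 knockout replicates 1, 2, 3 or 5 or double knockout replicates 1, 3 or 4 (0.073 to 0.218). Without the 3 libraries that stand apart both were lost (Gstp3 0.104, Ces2e 0.196). Among male mice the calls of Cyp2d12 (0.19), Cyp2c23 (0.0804), Cyp2j6 (0.143) and Aldh1a3 (0.225) were lost.

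Whether the double deletion differed from the sum of the single ones was tested as an interaction on the log2 scale. By edgeR 0 of 61 members passed, against 1.38% of all genes, and 9 had an unadjusted p under 0.05, as did 2808 of all 15458 genes. In DESeq2, whose share over all genes is not given here, 1 member passed. That gene was Ces1f, with an interaction of −1.69 ± 0.45 (adjusted p = 0.0506 by edgeR and 0.0132 by DESeq2), followed by Ces1e at −1.13 ± 0.37 (edgeR, adjusted p = 0.104). Ces1f was at 4.32 to 9.72 CPM in the Xbp1 knockout, 10.3 to 14.5 CPM in the Casp8 knockout and 1.14 to 7.42 CPM in the double knockout, against 5.01 to 11.1 CPM in WT. Its levels were thus highest in the Casp8 knockout and lowest in the double knockout. The count was 1 without Xbp1 knockout replicate 5, Casp8 knockout replicate 4 or double knockout replicates 2 or 3.

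The triple knockouts ask what epithelial TNFR1 or MLKL contributes to the double knockout state. Both comparisons use the same 5 double knockout libraries, so their values are given side by side and not as separate evidence. In the TNFR1 triple knockout against the double knockout, 2 members changed, both higher, 3.28% of members against 2.35% of all genes (1.02% higher). In the MLKL triple knockout against the double knockout, 10 changed, 5 higher and 5 lower, 16.4% of members against 7.65% of all genes (3.44% higher, 4.21% lower).

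Aldh1a1 and Gstt1 were higher in both triple knockouts than in the double knockout. Aldh1a1 was at 22.05, 50.5, 53.8, 34.1 and 43.9 CPM in TNFR1 triple knockouts (0.999 ± 0.20, edgeR, adjusted p = 0.00919) and at 37.7, 42.3, 40.9, 52.6 and 33.3 CPM in MLKL triple knockouts (0.95 ± 0.20, adjusted p = 0.00364), against 11.9 to 26.8 CPM in the double knockout. All but TNFR1 triple knockout replicate 1 lay above every double knockout library. Gstt1 was at 22.98, 34.1, 40.1, 27.3 and 28.9 CPM in TNFR1 triple knockouts (0.68 ± 0.14, adjusted p = 0.0118) and at 23.5, 31.8, 37.5, 33.4 and 31.4 CPM in MLKL triple knockouts (0.65 ± 0.14, adjusted p = 0.00433), against 15.2 to 22.6 CPM in the double knockout. No triple knockout library overlapped the double knockout for Gstt1. The count of members for the TNFR1 triple against the double knockout was 4 without double knockout replicate 2 and without TNFR1 triple knockout replicate 1. Fitted on the TNFR1 triple knockout and double knockout libraries alone, Aldh1a1 (edgeR, adjusted p = 0.133) and Gstt1 (0.115) did not pass. Female and male mice numbered 4 and 1 among TNFR1 triple knockouts and 1 and 4 among double knockouts, so sex and genotype nearly coincide here. With sex as a term Aldh1a1 and Gstt1 passed in this comparison.

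Gsta4, Gsta3, Ces2e and Gstp3, higher in the double knockout than in WT, were lower in MLKL triple knockouts than in the double knockout. Gsta4 was at 17.2, 24.7, 15.1, 23.4 and 16.1 CPM in MLKL triple knockouts, against 116, 35.4, 47.0, 44.7 and 63.5 CPM in the double knockout (−1.70 ± 0.28, edgeR, adjusted p = 0.000406). Gsta3 was at 24.96, 32.2, 26.3, 33.4 and 20.4 CPM in MLKL triple knockouts, against 62.0, 53.8, 46.6, 44.0 and 27.6 CPM in the double knockout (−0.82 ± 0.19, adjusted p = 0.00629). The Gsta4 groups did not overlap, and the Gsta3 groups overlapped only through double knockout replicate 5. Ces2e was at 26.8 to 44.4 CPM in MLKL triple knockouts, against 44.4 to 121 CPM in the double knockout (−1.02 ± 0.22, adjusted p = 0.0047), and Ces2a, Ces2b and Ces2g, at 0.03, 0.15 and 0.08, did not pass. Gstp3 was at 0.998 to 6.26 CPM in MLKL triple knockouts, against 5.26 to 20.8 CPM in the double knockout (−1.76 ± 0.41, adjusted p = 0.00681). Ces2e lies 6.38 Mb from Mlkl on chromosome 8.

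Aldh1a3 was lower too (−0.65 ± 0.19, edgeR, adjusted p = 0.0342). The other higher members were Sult1a1, at 64.0, 77.9, 117, 121 and 120 CPM in MLKL triple knockouts, against 34.2 to 89.0 CPM in the double knockout (0.80 ± 0.23, adjusted p = 0.028), Ugt1a7c (0.44 ± 0.13, 0.0398) and Cyp2c23 (1.63 ± 0.50, 0.0404). These 4 calls were each lost without double knockout replicate 4, without double knockout replicate 5 and without MLKL triple knockout replicates 3 or 4. Sult1a1 was also lost without double knockout replicate 2 or the library labelled MLKL triple knockout replicate 5, Ugt1a7c without MLKL triple knockout replicate 1, Cyp2c23 without double knockout replicates 2 or 3 or MLKL triple knockout replicate 2, and Aldh1a3 without double knockout replicate 1 or MLKL triple knockout replicate 1, with adjusted p of 0.0518 to 0.12. The count was 6 without double knockout replicates 4 or 5 or MLKL triple knockout replicates 3 or 4. All 5 MLKL triple knockout mice were female and 4 of 5 double knockout mice male. With sex as a term 6 members passed, which were Gsta4 (−1.48, adjusted p = 0.00532), Gsta3 (−0.73, 0.0399), Ces2e, Aldh1a1, Gstt1 and Sult1a1. Gsta3 (0.0559), Gstp3 (0.0585) and Aldh1a3 (0.11) did not pass without the 3 libraries that stand apart.

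**Figure D4:**
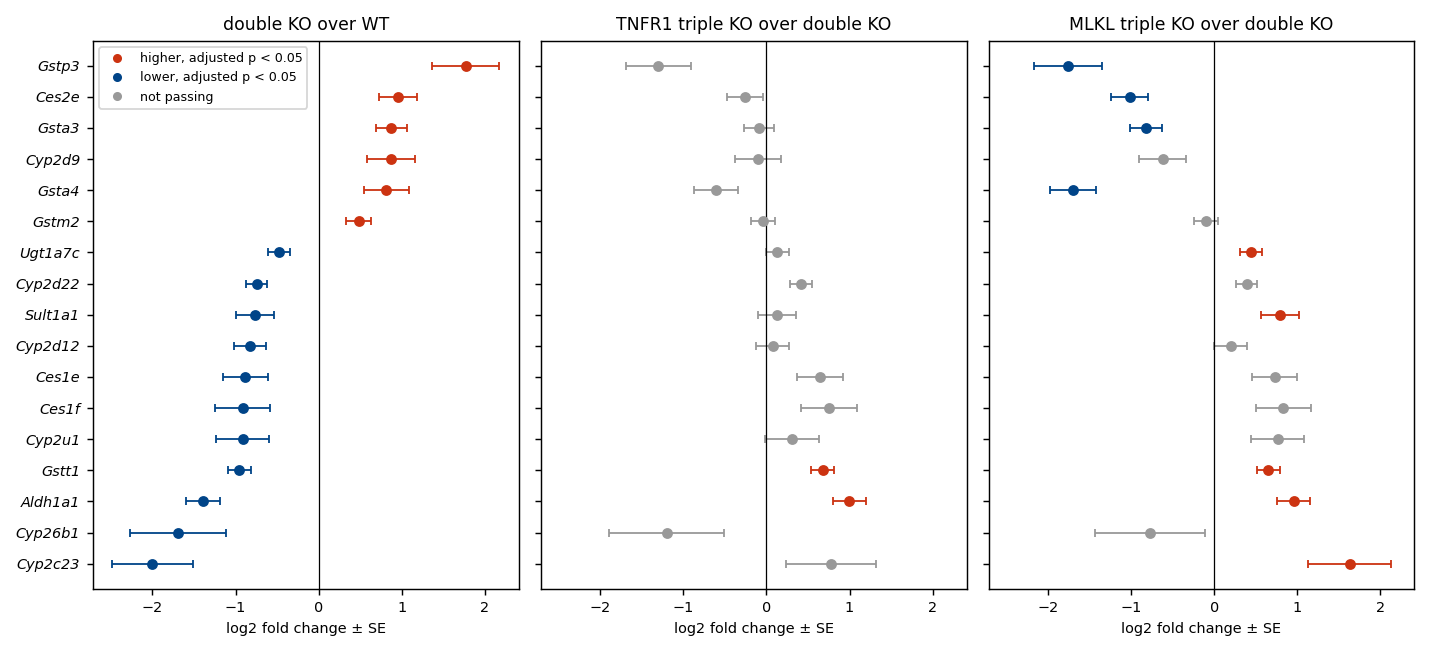
Log2 fold changes with ±1 SE of the 17 members that changed between double knockout and WT, in the double knockout over WT, the TNFR1 triple over the double knockout and the MLKL triple over the double knockout. All 3 use the double knockout libraries, so opposite signs are partly built in; Gsta4 is at −1.70 in the MLKL triple and −0.61 in TNFR1 triple knockouts.

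In the TNFR1 triple knockout the same raised genes had log2 fold changes against the double knockout of −0.61 for Gsta4 (edgeR, adjusted p = 0.211), −0.09 for Gsta3, −0.26 for Ces2e and −1.30 ± 0.39 for Gstp3 (0.0672), and none of the 4 passed. Set directly against each other, the 2 triple knockouts gave 0 of 61 members by edgeR, against 0.259% of all genes. In DESeq2, whose share over all genes is not given here, 2 members passed. By edgeR 16 members had an unadjusted p under 0.05, as did 1321 of all 15458 genes. The 61 members include the Ugt1a genes, which share most of their reads. The 2 of smallest p were Gsta3, at 20.4 to 33.4 CPM in MLKL triple knockouts, against 32.9 to 52.1 CPM in TNFR1 triple knockouts (−0.73 ± 0.19, edgeR, adjusted p = 0.114), and Gsta4, at 15.1 to 24.7 CPM in MLKL triple knockouts, against 25.3 to 64.9 CPM in TNFR1 triple knockouts (−1.09 ± 0.28, 0.116). The Gsta4 groups did not overlap and the Gsta3 groups did so only at one edge. Smooth muscle markers summed to 3332 to 6704 CPM in the TNFR1 triple and 4348 to 5455 CPM in MLKL triple knockouts, against 2644 to 3941 CPM in the double knockout, and their part in these results was not tested.

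Few members differed from WT in the triple knockouts. In the TNFR1 triple knockout against WT 3 members changed, 1 higher and 2 lower, 4.92% of members against 2.12% of all genes (1.16% higher, 0.957% lower). Gsta3 was at 52.0, 32.9, 52.1, 38.5 and 42.4 CPM in TNFR1 triple knockouts, against 26.1, 18.7, 20.5, 37.7 and 29.5 CPM in WT (0.79 ± 0.19, edgeR, adjusted p = 0.0261). Cyp2d12 was at 15.5 to 22.8 CPM in TNFR1 triple knockouts, against 28.6 to 38.2 CPM in WT (−0.75 ± 0.19, adjusted p = 0.0348). Cyp26b1 was called lower in TNFR1 triple knockouts (−2.90 ± 0.65, adjusted p = 0.0153) and, as the only member of 61 (1.64% against 0.854% of all genes, 0.511% lower), in MLKL triple knockouts (−2.46 ± 0.62, 0.0499). Without WT replicate 1 it was at −1.02 (adjusted p = 0.228) in the TNFR1 triple and −0.58 (0.564) in MLKL triple knockouts; the first call was also lost without TNFR1 triple knockout replicates 1 or 4, and the second without any MLKL triple knockout replicate or WT replicate 2, and without the 3 libraries that stand apart (0.0781). The Gsta3 call was lost without TNFR1 triple knockout replicate 1 or WT replicates 1, 2 or 3, and that of Cyp2d12 without TNFR1 triple knockout replicates 1, 2, 3 or 4 or WT replicates 1, 2, 4 or 5 (adjusted p 0.0504 to 0.1). The count was 0 without TNFR1 triple knockout replicate 1 or WT replicate 1, 1 without TNFR1 triple knockout replicate 4 or WT replicate 2, and 11 without TNFR1 triple knockout replicate 3, and with sex as a term it was 0.

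Across all 6 genotypes in 1 test, 18 of 61 members differed by edgeR, 29.5% against 19.1% of all genes. Of the 9 Ugt1a members 7 did not pass, and those that did share reads and are not separate measurements. The smallest adjusted p were those of Aldh1a1 (0.000461), Gstt1 (0.000591), Cyp2d12 (0.00143), Gsta3 and Gsta4 (0.0022 each). Aldh1a1 averaged 43.0 ± 6.02 CPM in the Xbp1 knockout, 41.9 ± 11.5 in the Casp8 knockout, 20.5 ± 6.17 in the double knockout, 40.8 ± 12.9 in TNFR1 triple knockouts, 41.4 ± 7.18 in MLKL triple knockouts and 56.1 ± 2.94 in WT (SD, n = 5 each). Its 4 middle means lay within their own spread. Gsta3 averaged 39.1 ± 7.07 CPM in the Xbp1 knockout, 36.9 ± 4.23 in the Casp8 knockout, 46.8 ± 12.8 in the double knockout, 43.6 ± 8.44 in TNFR1 triple knockouts, 27.5 ± 5.35 in MLKL triple knockouts and 26.5 ± 7.59 in WT. Its MLKL triple knockout and WT means lay closest together and lowest.

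Mouse liver is known for sex differences in several of these families. With genotype in the model, 0 of 61 members differed between female and male mice by edgeR, against 0.104% of all genes, and 0 passed DESeq2. By edgeR 4 members had an unadjusted p under 0.05, as did 1190 of all 15458 genes. Those of smallest p were Cyp2c55 (−0.74 ± 0.28, adjusted p = 0.535) and Cyp27a1 (−0.35 ± 0.14, 0.562). Without a low-count filter Cyp2c55 passed edgeR's test (adjusted p = 3.23e-08), so that its result depended on the filter.

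Genes around the families were listed by role. Of 18 known NRF2 target genes outside the families, 8 were higher and 1 lower in the double knockout against WT, where 11.1% of all genes were higher and 10.2% lower, with a median log2 fold change of 0.43 (0.01 over all genes). Nqo1, a quinone reductase, was at 22.5, 26.6, 16.5, 14.7 and 11.4 CPM in the double knockout, against 9.67, 10.8, 5.25, 7.96 and 12.2 CPM in WT (1.06 ± 0.25, edgeR, adjusted p = 0.00264). Only double knockout replicate 5 fell within the WT range. Tkt and G6pdx of the pentose phosphate pathway were higher at 0.75 ± 0.16 (adjusted p = 0.00123) and 0.67 ± 0.16 (0.00404), and Slc7a11, the cystine importer for glutathione synthesis, at 1.68 ± 0.39 (0.00275). In the MLKL triple knockout against the double knockout 5 of the 18 were lower and 1 higher, where 4.21% of all genes were lower and 3.44% higher, and Nqo1 was at 6.08 to 11.7 CPM in MLKL triple knockouts (−1.14 ± 0.25, adjusted p = 0.00461). In the TNFR1 triple knockout against the double knockout 0 of the 18 passed edgeR's test (2.35% of all genes did). There 3 of them had an unadjusted p under 0.05, as did 2812 of all 15458 genes, and Nqo1 was at 12.97 to 19.3 CPM in TNFR1 triple knockouts (−0.03, adjusted p = 0.965).

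Of 21 tested receptors and regulators 4 were higher and 2 lower in the double knockout against WT. Against the 21.3% of all genes that changed there (11.1% higher, 10.2% lower), the counts of this list and of the 3 lists that follow were not tested. The 4 of smallest p were Cdx2 (1.31 ± 0.30, edgeR, adjusted p = 0.00216), an intestinal transcription factor, Hnf4g (−0.78 ± 0.19, 0.00408), Bach1 (0.65 ± 0.20, 0.017), a repressor at NRF2 target genes, and Tiparp (0.55 ± 0.17, 0.0199), a target and inhibitor of AHR. Of 33 other oxidizing and hydrolysing enzymes 5 were higher and 7 lower, beside the same shares of all genes. Aldh3a1 was at 0.172, 1.44, 0.992, 0.238 and 0 CPM in the double knockout, against 4.72, 7.14, 5.97, 5.62 and 10.02 CPM in WT (fitted −3.46 ± 0.57, adjusted p = 8.68e-05), without overlap. Fmo5, a flavin monooxygenase, was lower (−1.04 ± 0.19, 0.000256), and Xdh, xanthine dehydrogenase, and Cyp4f14 were higher (1.38 ± 0.30, 0.00146, and 1.06 ± 0.26, 0.00421).

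Of 17 other conjugation and cofactor genes 3 were higher and 3 lower in the double knockout against WT, where 11.1% of all genes were higher and 10.2% lower. Ugdh, which makes the UDP-glucuronic acid used by the Ugt enzymes, was lower (−0.68 ± 0.13, edgeR, adjusted p = 0.000412), as were the sulfate transporter Slc26a2 (−0.80 ± 0.16, 0.000609) and Gstz1 (−0.47 ± 0.11, 0.00345), while Ugp2, which makes UDP-glucose, was higher (0.43 ± 0.10, 0.00337). Of 12 transporters 2 were higher and 2 lower, beside the same shares. The efflux pumps Abcb1a (P-glycoprotein) and Abcc2 were lower (−0.77 ± 0.15, 0.000359, and −1.32 ± 0.39, 0.0134), and Slc51b, a subunit of the basolateral bile acid exporter, and Abcc3 were higher (1.61 ± 0.30, 0.00031, and 0.49 ± 0.17, 0.0355). In the TNFR1 triple knockout against the double knockout Fmo5, Aldh3a1 and Ugdh were higher (0.77, 2.23 and 0.56) and Xdh was lower (−1.20). In the MLKL triple knockout against the double knockout Ugdh was higher (0.58, edgeR, adjusted p = 0.00564) and Xdh lower (−1.19, 0.0122), while Fmo5 (0.42, 0.193) and Aldh3a1 (1.01, 0.42) did not pass. Set directly against each other, the MLKL triple and TNFR1 triple knockouts did not pass for Fmo5 (−0.36, adjusted p = 0.616) or Aldh3a1 (−1.22, 0.542). Of the 33 oxidizing and hydrolysing enzymes 2 were higher and 1 lower in the TNFR1 triple knockout, against 2.35% of all genes changed, and 0 higher and 2 lower in the MLKL triple knockout, against 7.65% of all genes.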

How the data were processed

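RNA of the colon of 30 mice, 5 for each of 6 genotypes, was made into 3′ tag libraries with a Lexogen QuantSeq forward kit from 2 µg of total RNA (RIN above 7) of each mouse, per the labels' protocols. Estimated counts of reads for each Ensembl gene are what the authors deposited, and 11.2% of non-zero values are not whole. The submitters' processing notes name the build GRCm38 (mm10) and the tools cutadapt 3.2, featureCounts 2.01, Subread and R 4.0.0. How strand was handled, which annotation release and aligner settings applied and how shared reads were divided is not given in the sources used here. Reads carry no stated molecular identifier, so counts can hold PCR copies.

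Of 55487 gene identifiers 55141 matched a symbol; the 346 others held 0.0190% of reads, and 92 spike-in sequences with 0 reads were left out. Estimated counts were rounded, moving library totals by 0.00321% or less. The function filterByExpr kept 15458 genes, and a single fit held the 30 libraries with 1 coefficient for each genotype (R 4.3.3, edgeR 4.0.16, TMM, quasi-likelihood F test, Benjamini-Hochberg over all genes tested, threshold 0.05). SE were taken as the size of the log2 fold change over the square root of F. CPM were scaled by library totals, without TMM. Xist and Y-linked reads gave the sex. The script was tested on simulated data.

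Named were the top member of each family, up to 12 called members of smallest p per direction in double knockout against WT, up to 5 in each other comparison (the 2 of smallest p where none was called), and up to 4 called genes of each related list. Members and lists were chosen with earlier results of these data known. Alternatives were DESeq2 1.42.0, its size factors, no low-count filter, sex as a term, the replicate number as a block, only the groups compared, 1 sex only and leaving out each mouse. The direct test between the triple knockouts and the fit without the 3 libraries that stand apart were added after seeing the data. Replicate numbers did not pair the samples: over 75 same-numbered pairs the median correlation of deviations from the group means was 0.0159.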

Additional observations from a re-analysis of the deposited data

Results flagged for a closer look

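In groups of 5, a library was singled out where its gap to the nearest other, as a share of the group's range, exceeded Dixon's critical value. Chance marks about 1 in 20 groups; 25 of 264 groups of member or family values were marked, and the causes were not tested.

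In double knockout replicate 1, the library with the low mitochondrial share, 4 values stood high: Cyp2d34 at 222.2 CPM, the Cyp2d sum at 390.2 CPM, the Cyp2 sum at 620.3 CPM and the Gsta sum at 177.9 CPM. In WT replicate 1 Cyp26b1 stood at 67.03 CPM, and it was low at 2.086 CPM in MLKL triple knockout replicate 3. Casp8 knockout replicate 4 was high in Ces2e (77.8 CPM), in the Ces2 sum (120.7 CPM) and in Gstp3 (6.525 CPM), and Xbp1 knockout replicate 5 in Gstp3 (7.042 CPM).

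Cyp2e1 was high in MLKL triple knockout replicate 3 (7.039 CPM), Casp8 knockout replicate 3 (2.966 CPM) and double knockout replicate 2 (1.436 CPM). MLKL triple knockout replicate 3 was also high in Gstt3 (108.7 CPM) and the Gstt sum (188.8 CPM). The library labelled MLKL triple knockout replicate 5 was low in Ugt2b34 (226.9 CPM), the Ugt2 sum (238.3 CPM) and the Gstm sum (423.1 CPM). TNFR1 triple knockout replicate 3 was high in Cyp3a13 (126.3 CPM) and the Gsta sum (117 CPM), and MLKL triple knockout replicate 2 was low in Cyp3a13 (98.77 CPM). The library labelled Xbp1 knockout replicate 2 was high in the Gstm sum (558.2 CPM), Casp8 knockout replicate 5 in Sult1c2 (19.24 CPM), and WT replicate 5 in Gstm1 (450.3 CPM) and the Ugt1a sum (280 CPM).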

How the results depend on the processing

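Counted as single values, 1 for each named result under each alternative, most kept their direction and their side of the threshold. These values include results that were not called to begin with. Counted by result, most of the named calls were lost in at least 1 alternative. Over all alternatives that keep every library or drop several, 365 values for named members stayed on their side, 55 lost their call and 8 gained one; over those that drop 1 library, 514 stayed, 110 lost a call, 4 gained one and 2 reversed. Both reversals were Cyp26b1 without WT replicate 1: its log2 fold change when 1 library was dropped ran from −2.11 to 0.043 in the Xbp1 knockout and from −1.97 to 0.18 in the double knockout, against WT. The causes of these changes were not tested.

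The count of called members was as follows, and for comparisons not named under a setting it stayed within 1.5 times. The share of all genes called under each alternative is not given here or elsewhere in the text. A changed count, also with 1 library dropped or with the replicate block, can therefore not be told apart from a change over all genes. With sex as a term it was 0 for the Casp8 knockout, 0 for the TNFR1 triple and 0 for the MLKL triple knockout against WT, and 6 for the MLKL triple against the double knockout. Among male mice it was 0 for the Casp8 knockout against WT, and 1 and 6 for the double knockout against the Xbp1 and the Casp8 knockout; the triple knockouts hold too few males for such a fit. With only the groups compared it was 2 for the Casp8 knockout against WT, 3 for the MLKL triple knockout against WT and 0 for the TNFR1 triple against the double knockout. Without a low-count filter it was 2 between the triple knockouts, 1 for the interaction and 1 for sex (Cyp2c55). DESeq2 gave 2 for the MLKL triple knockout against WT, 2 between the triple knockouts and 1 for the interaction, for which its size factors also gave 1. Without the 3 libraries that stand apart it was 0 for the MLKL triple knockout against WT and 17 for the double knockout against WT.

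With 1 library dropped at a time, the counts ranged over 0 to 1 (Casp8 knockout), 11 to 19 (double knockout), 0 to 11 (TNFR1 triple knockout) and 0 to 1 (MLKL triple knockout) against WT, 3 to 8 and 12 to 22 for the double knockout against the Xbp1 and the Casp8 knockout, 2 to 4 (TNFR1 triple) and 6 to 11 (MLKL triple) against the double knockout, 0 to 1 for the interaction and 12 to 23 for all 6 genotypes.

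The samples share only replicate numbers: 29 of 75 same-numbered pairs correlated above 0.1, and 19 were best with their own number. With the replicate block the count was 0, 1, 18, 3 and 0 for the Xbp1, Casp8, double, TNFR1 triple and MLKL triple knockouts against WT, 7 and 21 for the double against the Xbp1 and the Casp8 knockout, 2 and 10 for the TNFR1 triple and MLKL triple against the double knockout, 0 for the interaction and 15 for all 6 genotypes. At 1 read per 0.232 CPM, members of a few CPM such as Cyp2c23, Gstp3 and Cyp2u1 rest on few reads.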

Other observations

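Cyp2e1, an ethanol-oxidizing P450 known from liver and fat, was at 0 reads in 10 of 30 libraries and stood out in a few. It was at 7.04 CPM in MLKL triple knockout replicate 3, where 5 adipose markers summed to 220.8 CPM, against 27.2 to 220.8 CPM over the MLKL triple knockout. In TNFR1 triple knockout replicate 3 it was at 4.64 CPM, with an adipose sum of 92.9 CPM, the highest of that genotype. In WT replicate 2 it was at 4.92 CPM, with an adipose sum of 51.7 CPM, the highest of WT. In double knockout replicate 2 it was at 1.44 CPM, with an adipose sum of 44.3 CPM, and in Xbp1 knockout replicate 3 at 1.23 CPM, with 37.8 CPM, each the highest of its genotype in both. In the Casp8 knockout these did not fall together: Cyp2e1 was highest in replicate 3, at 2.97 CPM, and the adipose sum in replicate 4, at 49.9 CPM, where Cyp2e1 was at 0.753 CPM. The part of fat in the Cyp2e1 reads was not tested.

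Of the other marker lists in the double knockout against WT, all 3 tested neutrophil markers, 5 of 9 macrophage and dendritic cell markers, all 3 tested T and NK cell markers and 2 of 3 tested squamous markers were higher by edgeR, where 11.1% of all genes were higher and 10.2% lower. Of 14 absorptive colonocyte markers 4 were higher and 2 lower, of 8 goblet cell markers 2 were higher and 3 lower, and of 5 enteric neuron and glia markers 3 were lower. None of the tested endothelial (5), adipose (3), hepatocyte (2) and small intestinal (2) markers passed. An unadjusted p under 0.05 was found for 1 of them, an endothelial one, and for 5323 of all 15458 genes.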
